A study of Mus musculus with 6 samples.

Results

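Glutathione transferases couple the tripeptide glutathione to reactive compounds, and the 10 mouse genes described here belong to the alpha (Gsta1, Gsta2, Gsta3, Gsta4), pi (Gstp1, Gstp2), theta (Gstt1, Gstt2, Gstt3) and kappa (Gstk1) classes. They were chosen by symbol and matched to the gene identifiers through GENCODE vM21; all 10 were found among the 54532 identifiers, and all 10 had a mean of at least 0.5 FPKM, so that each entered the fit over 11672 genes. FPKM is a read level scaled to exon length and to a factor for each library. Here that factor tracked the median ratio of gene reads between libraries (0.995 to 1.004 of it, relative) and not the total reads. RNA from liver of untreated mice was sequenced in 6 libraries, 3 labelled WT and 3 labelled LKO, the second being mice in which Arid2, a subunit of the PBAF chromatin remodelling complex, is deleted specifically in the liver. The sources used here give no strain, age, Cre driver or allele common to both groups. Whether each library is a different animal is not stated either, and p-values therefore reflect only the spread among these samples.

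The alpha, pi and theta enzymes work in the cytosol and the kappa enzyme in mitochondria and peroxisomes. Alpha enzymes reduce lipid hydroperoxides and conjugate lipid aldehydes, the pi enzyme is abundant in male mouse liver, and theta enzymes act on small halogenated compounds and sulfate esters. Transcription of many of these genes is raised by NRF2 through antioxidant response elements, and by the xenobiotic receptors CAR, PXR and AHR.

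The recovered reads numbered between 13947787 and 18159285 per library, and 3 reads on 1 kb of exon corresponded to between 0.156 and 0.236 FPKM, a floor for counting error only. The replicate 1 library of each group stood apart, with 2003 (WT) and 2368 (LKO) genes at 1 to 5 reads, where the other libraries had 3913 to 4263. The mitochondrial share of reads was 20.7%, 10.2% and 18.5% in the WT libraries by replicate number, and 27.6%, 7.72% and 4.76% in the LKO libraries. Arid2 itself did not separate the groups (1.74 to 2.65 FPKM in WT, 1.33 to 2.55 in LKO; log2 difference -0.05, limma adjusted p = 0.974). Its level is thus no check of the labels, on which every direction rests.

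Several of the genes are near copies of each other, which bears on how far each value belongs to its own gene. Of the 100-base windows of the Gsta1 transcripts, 80.6% also occurred in a transcript of another gene, chiefly the neighbouring Gm3776 (64.7%) and Gsta2 (24.3%). The share was 28.4% for Gsta2, 25.1% for Gstp1 and 46.9% for Gstp2, the pi genes sharing with each other and with the pseudogene Gstp-ps. Gstt3 shared 10.8%, with the overlapping gene model Gm20441, which was at 0 in every library. Gsta3, Gsta4, Gstt1, Gstt2 and Gstk1 shared no 100-base window with any other gene. The sources used here state neither the strand setting nor the treatment of reads with several matches. Values of Gsta1, Gsta2, Gstp1, Gstp2 and Gstt3 are therefore uncertain to the extent of that overlap.

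The start regions of 3 members are shown. Gstp1 and Gstp2 combine similar start regions with very different levels. Gsta3 had the only available member window that matched the pattern used here for the antioxidant response element core. The windows come from RefSeq on GRCm38.p6, run from 250 bases before to 50 bases after the start, and were available for 8 of the 10 members. Capitals mark matches to the antioxidant response element core TGACNNNGC, the xenobiotic response element core GCGTG, the STAT palindrome TTCNNNGAA and the AP-1 element TGANTCA, on either strand; the last was added after the sequences had been seen. The 3 windows lie at chr19:4037863-4038162 (Gstp1, minus strand), chr19:4042172-4042471 (Gstp2, minus strand) and chr1:21240335-21240634 (Gsta3, plus strand).
Gstp1: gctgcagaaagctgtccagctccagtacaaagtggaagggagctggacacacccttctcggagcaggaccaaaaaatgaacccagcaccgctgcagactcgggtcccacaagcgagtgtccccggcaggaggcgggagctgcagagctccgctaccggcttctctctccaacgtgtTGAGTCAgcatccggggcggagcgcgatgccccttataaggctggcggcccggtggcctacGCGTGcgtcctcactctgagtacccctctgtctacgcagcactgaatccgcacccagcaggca
Gstp2: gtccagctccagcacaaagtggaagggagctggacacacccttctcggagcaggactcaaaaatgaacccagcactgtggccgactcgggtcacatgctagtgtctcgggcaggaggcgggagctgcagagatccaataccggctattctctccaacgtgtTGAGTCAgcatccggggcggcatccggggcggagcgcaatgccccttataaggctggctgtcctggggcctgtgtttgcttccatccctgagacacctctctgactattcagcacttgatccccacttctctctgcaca
Gsta3: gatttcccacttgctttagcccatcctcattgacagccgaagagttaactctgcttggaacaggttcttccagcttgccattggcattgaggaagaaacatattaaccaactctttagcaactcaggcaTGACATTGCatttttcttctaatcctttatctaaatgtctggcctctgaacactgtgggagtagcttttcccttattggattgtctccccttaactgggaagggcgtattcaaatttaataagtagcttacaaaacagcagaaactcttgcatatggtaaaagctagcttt
The Gstp1 and Gstp2 windows were identical at 76.6% of 316 aligned positions, and both held the AP-1 match TGAGTCA. The GCGTG match, present at 32.4% of all 32851 windows of this length, was in the Gstp1 window and not in that of Gstp2, and was also found at Gsta1 and Gsta2. The antioxidant response element core was found in 12.4% of all windows and in 1 of 8 members, the AP-1 element in 7.81% and in 2 of 8, and the STAT palindrome in 8.30% and in 1 of 8 (Gsta1). No 2 of these motifs overlapped in the windows printed. A match describes letters only, and a variant outside these patterns is not marked. In the Gstp1 and Gstp2 windows the AP-1 match is followed by GC. The stretch TGAGTCAGC there has G where the pattern TGACNNNGC has C.

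None of the 10 transferase genes passed the threshold between LKO and WT (limma-trend, adjusted p under 0.05), in a comparison that called 5 of 11672 genes, or 0.0428%. The lowest adjusted p among them was 0.153, for Gstt2. By unadjusted p, 2 of the 10 (Gstt2 and Gstp1) were under 0.05, against 9.22% of all genes. With array quality weights, the only alternative that called any member, 3 of the 10 were called lower (Gstt2, Gstp1 and Gsta2), against 4.92% of all genes; the estimation of those weights did not converge. In 3 of the 10 the groups did not overlap, against 15.4% of all genes: Gstt2 and Gstp1 were lower in every LKO library (7.42% of all genes), and Gstt1 was higher in every LKO library (8.0%). The fitted log2 difference was above 0 for 5 members and below 0 for 5, with a median of -0.10 beside 0.03 over all genes tested. With 1 library left out that median lay between -0.38 (without LKO replicate 1) and 0.0071 (without WT replicate 3). In bulk tissue fewer cells of a type and less RNA per cell cannot be told apart. For a single gene an exact permutation test of 3 against 3 cannot go below p = 0.1.

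**Figure D1:**
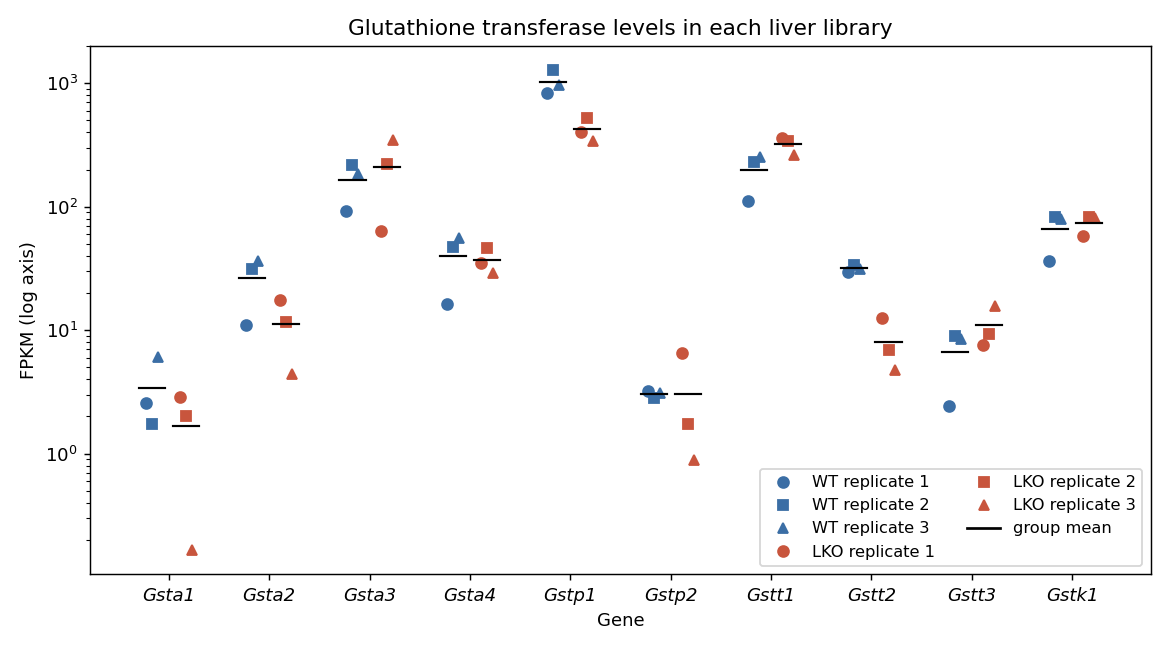
FPKM of the 10 glutathione transferase genes (log axis) in each of the 6 liver libraries, with blue for WT, red for LKO, a symbol per replicate number and a black line at each group mean. The groups are apart for Gstp1, Gstt1 and Gstt2 and overlap for the other 7 genes.

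By group mean, Gstp1 was the most abundant of the 10 transcripts in both groups, but Gsta3 was slightly above it in LKO replicate 3. The mean of Gstp1 in LKO libraries was 0.411 of that in WT. The gene lies on chromosome 19 (4035407 to 4037985, minus strand, mm10) and encodes the main pi class enzyme. Its level was 827, 1281 and 974 FPKM in WT 1 to 3 and 399, 527 and 340 FPKM in LKO 1 to 3, from at least 7855 reads in each library. Here and below, WT 1 to 3 and LKO 1 to 3 are the replicate libraries of each group in order of their number. The highest LKO library was below the lowest WT library. The means were 1027 ± 232 and 422 ± 95.8 FPKM (SD, n = 3 per group), and the log2 difference was -1.28 ± 0.36 (SE; limma 95% interval -2.11 to -0.45, adjusted p = 0.320). It lay between -1.45 and -1.11 with each library left out in turn, and at -1.40 without both replicate 1 libraries.

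Gstp2, the adjacent pi gene (4040285 to 4046023, minus strand), was hardly represented. Its level was 3.23, 2.81 and 3.08 FPKM in WT 1 to 3 and 6.54, 1.74 and 0.889 FPKM in LKO 1 to 3. The LKO libraries thus lay on both sides of a narrow WT range, and the log2 difference of -0.25 ± 0.48 (SE, limma adjusted p = 0.928) turned to 0.17 without LKO replicate 3. Gstp1 exceeded Gstp2 by 256 to 457 times in WT and by 61.0 to 383 times in LKO, despite the similar start regions printed above.

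The processed pseudogene Gstp-ps on chromosome 1 (192073820 to 192074450) took the second largest number of reads among the pi copies. It was at 241, 265 and 257 FPKM in WT 1 to 3 and at 136, 88.5 and 53.9 FPKM in LKO 1 to 3 (log2 difference -1.54 ± 0.39 SE, limma adjusted p = 0.290). Of its 100-base windows 39.5% are also in Gstp1, so whether these reads come from the pseudogene or from Gstp1 was not tested. Gstp3, the third pi gene of the locus, shared no window with the others and lay at 30.2 to 35.5 FPKM in WT and 23.2 to 32.6 FPKM in LKO (limma adjusted p = 0.812). With the reads of Gstp1, Gstp2, Gstp3 and Gstp-ps summed into 1 row, which no division of reads among these 4 can move, the log2 difference was -1.27 ± 0.35 (SE, limma adjusted p = 0.320).

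In the theta class Gstt2 was lower and Gstt1 higher in every LKO library, neither past the threshold. The theta genes lie in a row on chromosome 10, minus strand: Gstt3 (75774115 to 75781414), Gstt1 (75783813 to 75798584) and Gstt2 (75831114 to 75837424). Gstt2 was at 29.8, 33.7 and 31.5 FPKM in WT 1 to 3 and at 12.5, 6.88 and 4.78 FPKM in LKO 1 to 3. The WT libraries were within a ratio of 1.13 of each other, and every LKO library was below them. The means were 31.6 ± 1.96 and 8.06 ± 4.0 FPKM (SD, n = 3 per group), a ratio of 3.93, and the log2 difference was -1.94 ± 0.35 (SE; limma 95% interval -2.75 to -1.12, adjusted p = 0.153). By unadjusted p Gstt2 stood at place 50 of 11672 genes, and its log2 difference lay between -2.27 and -1.66 with each library left out.

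Gstt1, the main theta transcript, was at 111, 229 and 252 FPKM in WT 1 to 3 and at 361, 341 and 263 FPKM in LKO 1 to 3. The lowest LKO library was only slightly above the highest WT library. The means were 197 ± 75.8 and 321 ± 51.8 FPKM (SD, n = 3 per group), with a log2 difference of 0.77 ± 0.40 (SE; limma 95% interval -0.17 to 1.72, adjusted p = 0.628). It was 0.40 without WT replicate 1, the lowest library, and 0.31 without both replicate 1 libraries. Gstt3 was at 2.42, 8.98 and 8.41 FPKM in WT 1 to 3 and at 7.60, 9.37 and 15.8 FPKM in LKO 1 to 3, so its groups overlapped (log2 difference 0.74 ± 0.48 SE, limma adjusted p = 0.711). Its log2 difference was 0.24 without WT replicate 1 and 0.46 without LKO replicate 3.

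The ratio of Gstt1 to Gstt2 within a library, chosen after the values were seen, was 3.72, 6.81 and 8.0 in WT 1 to 3 and 28.8, 49.5 and 55.0 in LKO 1 to 3. This ratio does not depend on the scaling between libraries. With Gstt1 higher and Gstt2 lower in every LKO library, its groups could not overlap, so their separation is no further result. Neither gene shares a 100-base window with another. Of the genes within 100 kb of the theta genes, 6 others were tested and 0 were called (limma), with log2 differences between -0.15 and 0.58. They include the tautomerase genes Mif and Ddt. The WT and LKO means were 293 ± 53.2 and 305 ± 75.7 FPKM for Mif and 57.1 ± 15.9 and 78.0 ± 26.8 FPKM for Ddt (SD, n = 3 per group). Gstt4, between Gstt1 and Gstt2, was at 0 in every library.

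**Figure D2:**
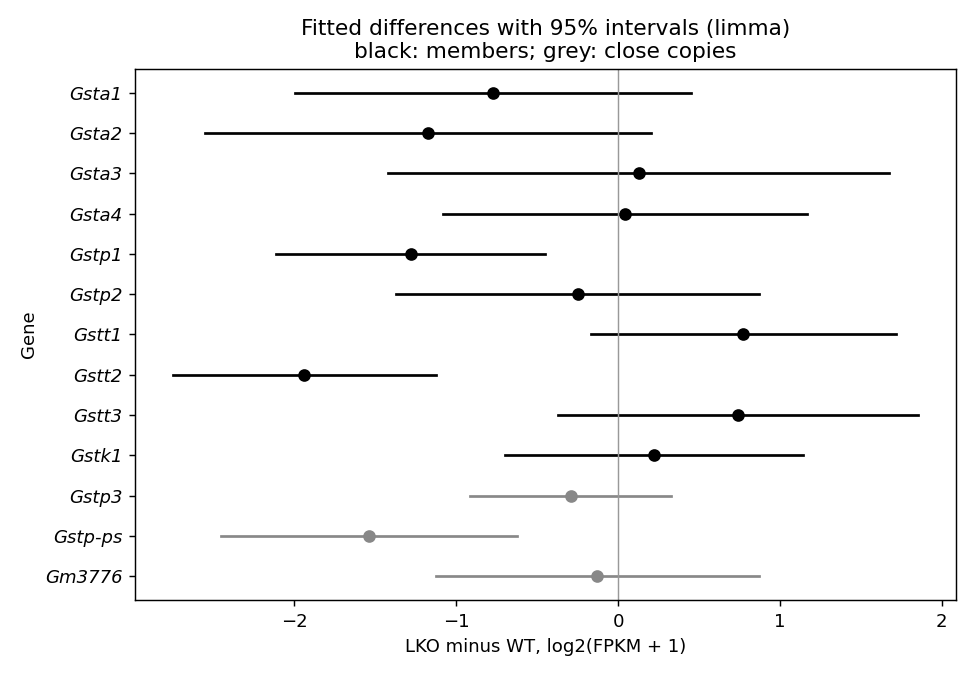
Fitted LKO minus WT difference on the log2(FPKM + 1) scale with its 95% interval (limma, not adjusted for the number of genes) for the 10 members in black and 3 close copies in grey. Only the intervals of Gstp1, Gstt2 and Gstp-ps leave out 0, at -1.28, -1.94 and -1.54, and none of the 3 passed after adjustment.

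In the alpha class no gene separated the groups. Gsta3 (chromosome 1, 21240589 to 21265661, plus strand), the most abundant alpha transcript, was at 92.0, 218 and 186 FPKM in WT 1 to 3 and at 63.3, 222 and 345 FPKM in LKO 1 to 3. The lowest and the highest of the 6 values were both in LKO, and the log2 difference was 0.13 ± 0.66 (SE; limma 95% interval -1.42 to 1.67, adjusted p = 0.976). Leaving out WT replicate 1 turned its sign (-0.25), as did leaving out LKO replicate 2 (-0.07) or LKO replicate 3 (-0.38), and it was 0.83 without LKO replicate 1. Ordered by Gsta3 from lowest to highest, the 6 libraries stood in the exact reverse order of the mitochondrial share of reads given above; this order was noticed after the values were seen, and its part in the Gsta3 result was not tested. The antisense gene Gm28836, whose span overlaps that of Gsta3, was at 3.85 to 6.27 FPKM in WT and 0.746 to 2.83 in LKO (limma adjusted p = 0.427). The transcripts of the 2 genes shared no 100-base window on either strand. From which strand the reads of Gm28836 came was not tested. Of the 3 tested neighbours of Gsta3 within 100 kb, 0 were called (limma), and the pseudogene Gm4956 had the largest difference. It averaged 8.98 ± 4.87 FPKM in WT and 0.690 ± 0.558 in LKO (SD, n = 3 per group), lower in every LKO library, with a log2 difference of -2.51 ± 0.39 (SE, limma adjusted p = 0.135).

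Gsta2 (chromosome 9, 78331018 to 78355788, minus strand) was at 10.9, 31.4 and 36.4 FPKM in WT 1 to 3 and at 17.7, 11.6 and 4.38 FPKM in LKO 1 to 3. Only WT replicate 1 kept the groups from being apart, and the log2 difference was -1.17 ± 0.59 (SE, limma adjusted p = 0.609). It moved to -2.08 without both replicate 1 libraries (limma adjusted p = 0.290) and to -0.67 without LKO replicate 3. Gsta1 (chromosome 9, 78230656 to 78242684, plus strand) was at 2.55, 1.72 and 6.03 FPKM in WT 1 to 3 and at 2.88, 2.01 and 0.165 FPKM in LKO 1 to 3, the last from 3 reads. Its groups overlapped (log2 difference -0.77 ± 0.52 SE, limma adjusted p = 0.736), and the difference was -0.26 without LKO replicate 3 and -0.38 without WT replicate 3. Summed with Gsta2, Gm3776 and Gm10639, the alpha copies gave -1.18 ± 0.61 (SE, limma adjusted p = 0.620).

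Gsta4, which encodes an enzyme with high activity towards the lipid aldehyde 4-hydroxynonenal, lies at 78182774 to 78209349 on the plus strand of chromosome 9. It was at 16.4, 47.0 and 56.0 FPKM in WT 1 to 3 and at 35.3, 46.1 and 29.3 FPKM in LKO 1 to 3. All LKO libraries lay within the WT range (log2 difference 0.04 ± 0.48 SE; limma 95% interval -1.08 to 1.17, adjusted p = 0.990), and the sign turned in 6 of 15 alternatives. Gstk1 (chromosome 6, 42245935 to 42250447, plus strand) was at 36.6, 81.8 and 79.7 FPKM in WT 1 to 3 and at 57.7, 82.5 and 80.3 FPKM in LKO 1 to 3. Replicate 1 was the lowest library of each group, and the log2 difference of 0.22 ± 0.39 (SE; limma 95% interval -0.70 to 1.14, adjusted p = 0.921) turned to -0.15 without WT replicate 1.

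**Figure D3:**
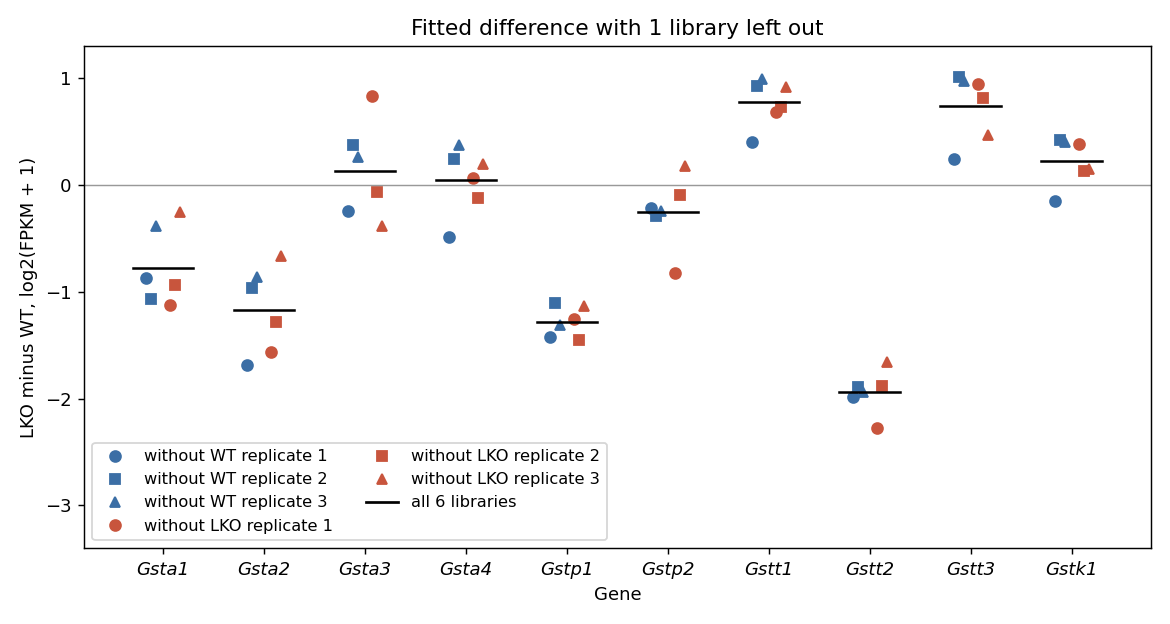
Fitted LKO minus WT difference on the log2(FPKM + 1) scale for each gene with 1 of the 6 libraries left out (points, coloured by the group of the library left out) and with all 6 (black line). Gstp1 stays between -1.45 and -1.11 and Gstt2 between -2.27 and -1.66, while Gsta3, Gsta4, Gstp2 and Gstk1 fall on both sides of 0.

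The pi class held a smaller part of the transferase transcripts in every LKO library. Of the FPKM summed over the 10 genes, the pi class held 73.4%, 66.3% and 59.9% in WT 1 to 3 and 42.1%, 42.3% and 31.5% in LKO 1 to 3. The theta class held 12.6%, 14.1% and 17.9% in WT and 39.5%, 28.6% and 26.2% in LKO, and the kappa class 3.23% to 4.88% in WT and 5.99% to 7.41% in LKO. These 3 shares did not overlap between the groups, whereas the alpha share did (10.8% to 17.4% in WT, 12.4% to 35.0% in LKO). Shares add up to the whole, so a lower pi sum raises the others: the summed level of the kappa class overlapped (36.6 to 81.8 and 57.7 to 82.5 FPKM), as did that of the theta class (143 to 292 and 283 to 381 FPKM). The pi sum was 830 to 1284 FPKM in WT and 341 to 529 FPKM in LKO. No test was made of these sums. Levels of different genes also depend on the merged exon length that divides their reads, 4344 bases for Gsta3 and 1548 for Gstp1. By reads, Gsta3 was above Gstp1 in LKO 2 (15075 against 12762) and LKO 3 (28458 against 9998), and below it in the remaining libraries.

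**Figure D4:**
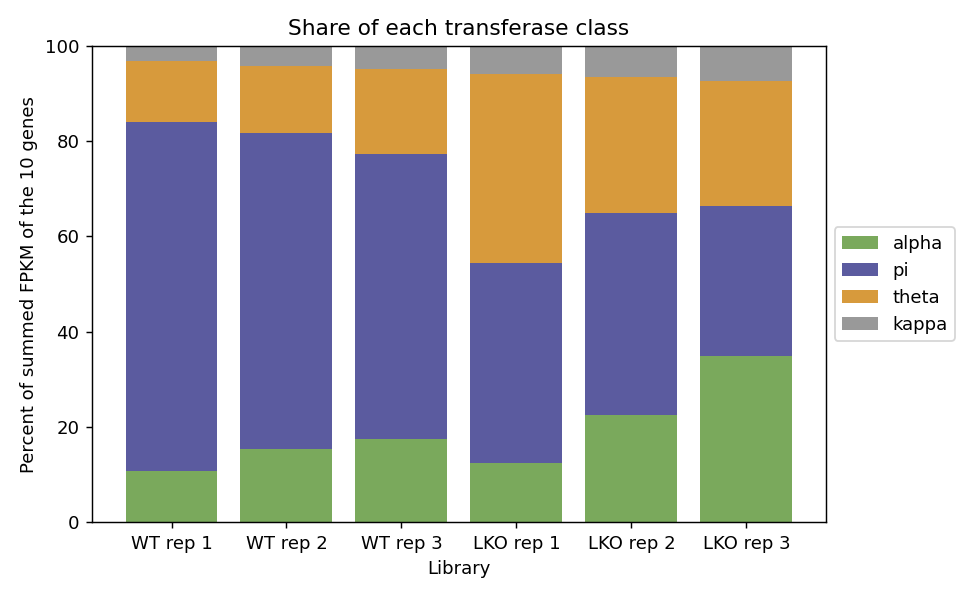
Percent of the FPKM summed over the 10 genes that each class holds in each library, as stacked bars that add up to the whole. The pi share is between 59.9% and 73.4% in WT libraries and between 31.5% and 42.3% in LKO libraries.

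The order of levels followed from the same values and depends on the exon lengths in the same way. In WT, Gstp1 stood apart at the top, followed by Gstt1 and Gsta3, whose ranges overlapped, and then by Gstk1, Gsta4, Gstt2 and Gsta2, each overlapping with the next. Gstt3, Gsta1 and Gstp2 were lowest and also overlapped in that order. In LKO the ranges of Gstp1 and Gstt1 overlapped (340 to 527 and 263 to 361 FPKM). The ratio of Gstp1 to Gstt1 was 1.11 to 1.55 against 3.87 to 7.46 in WT. With Gstp1 lower and Gstt1 higher in every LKO library, this ratio had to be apart as well. The LKO range of Gsta3 (63.3 to 345 FPKM) also reached that of Gstp1, and Gsta3 was above Gstp1 in LKO replicate 3. Gstt2 was the sixth in WT and the eighth in LKO, where it overlapped with Gstt3 and Gstp2.

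Of the glutathione transferases of other classes, 11 of 15 were tested and 0 were called (limma), with 1 higher and 3 lower in every LKO library, where all genes gave 8.0% and 7.42%, and a median of -0.38. The mu class gene Gstm3 averaged 40.3 ± 3.03 FPKM in WT and 6.57 ± 2.65 in LKO (SD, n = 3 per group), and its log2 difference was -2.51 ± 0.32 (SE, limma adjusted p = 0.0876).

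The supply of glutathione was described by 10 genes, of which 9 were tested and 0 called (limma; median 0.19). Gclc, the catalytic subunit of the rate-limiting enzyme of glutathione synthesis, averaged 42.0 ± 11.8 FPKM in WT and 118 ± 38.8 in LKO with no overlap (limma adjusted p = 0.281), and Gss, glutathione synthetase, overlapped (12.7 ± 1.37 against 18.4 ± 4.36 FPKM). Among 21 tested genes of glutathione reduction, use and breakdown 0 were called, with 1 higher and 2 lower in every LKO library, near the shares over all genes of 8.0% and 7.42%. Chac1, which degrades glutathione, was at 3.87 ± 1.97 and 11.1 ± 5.38 FPKM, and the peroxidase family gene Gpx7 at 1.35 ± 0.717 and 0.277 ± 0.234 FPKM. The LKO values of Gpx7 rest on only 2, 11 and 4 reads in LKO 1 to 3. Among 13 tested genes of conjugate export and mercapturate formation 0 were called, and 2 were lower and 0 higher in every LKO library, against the same shares. Among them the acetyltransferase gene Nat8 was at 21.6 ± 10.8 and 4.38 ± 2.27 FPKM (limma adjusted p = 0.294).

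Among 21 tested target genes of NRF2 outside the transferases, 6 were higher and 0 lower in every LKO library. The shares over all genes were 8.0% and 7.42%. Of these targets 0 were called (limma), and the median was 0.26. Gclc, given above, is among the 6. All lists here were written with earlier results of these data known, so their counts cannot be weighed against the shares over all genes. Srxn1, a sulfiredoxin, averaged 6.05 ± 0.253 FPKM in WT and 38.0 ± 22.5 in LKO, and Txnrd1, a thioredoxin reductase, 12.5 ± 2.33 and 24.0 ± 5.91. Hmox1, haem oxygenase, was at 2.91 ± 0.969 and 10.4 ± 6.10 FPKM. Of 17 tested targets of CAR, PXR and AHR, 0 were called, with 3 higher and 2 lower in every LKO library, against those same shares of all genes (median 0.80). Tiparp, an AHR target, was at 1.22 ± 0.0813 and 3.56 ± 1.96 FPKM. The AHR target Ugt1a6a, a glucuronosyltransferase of the multi-exon Ugt1a locus, was at 3.85 ± 1.27 and 1.51 ± 0.149 FPKM. Of 25 tested regulators 0 were called, with 6 higher and 1 lower in every LKO library, against 8.0% and 7.42% of all genes. Maff, a small Maf partner of NRF2, was at 3.35 ± 1.46 and 16.3 ± 3.64 FPKM (limma adjusted p = 0.138), Ahr at 5.25 ± 1.48 and 10.8 ± 1.72, and Mafg at 22.2 ± 2.94 and 12.3 ± 4.57 (SD, n = 3 per group).

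Male-biased liver genes are given because Gstp1 is itself male-biased in mice. The sex of the mice behind each library is not given here. This list, like the others, was written with earlier results of these data known, so its counts cannot be weighed against the shares over all genes. Of 12 tested, 2 were called lower and 0 higher (limma; 0.0343% and 0.00857% of all genes), 7 were lower in every LKO library (7.42% of all genes), and the median was -1.79. The summed level of pericentral hepatocyte genes was 2130 to 6827 FPKM in WT and 3133 to 7721 in LKO, lowest in replicate 1 of each group, and that of periportal genes 5090 to 6382 and 4018 to 6633 FPKM. None of the 13 pericentral and 15 periportal genes tested was called (limma); unadjusted p was under 0.05 for 3 and 1 of them, against 9.22% of all genes. In every LKO library 3 pericentral genes were higher and 0 lower, and 2 periportal genes were lower and 0 higher, against 8.0% and 7.42% of all genes for the higher and the lower direction.

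The defining markers of hepatocytes were present, and the list summed to 63091 to 72964 FPKM in WT and 56820 to 83397 in LKO with 9 of 10 symbols matched. Cholangiocyte markers summed to 52.9 to 64.1 FPKM in WT and 43.7 to 89.0 in LKO, those of Kupffer cells and macrophages to 33.2 to 75.9 and 43.6 to 93.6, of sinusoidal endothelium to 34.6 to 45.0 and 22.0 to 50.8, and of stellate cells and fibroblasts to 53.4 to 60.6 and 37.6 to 114. In these 5 lists no marker was at 0 in all libraries and 0 genes were called (limma). Neutrophil markers summed to 0.953 to 3.82 FPKM in WT and 3.27 to 16.3 in LKO, with Ly6g and Ngp at 0. Erythroid markers summed to 139 to 330 FPKM in WT and 91.3 to 149 in LKO, so the sums overlapped. The 5 erythroid markers tested all had a log2 difference below 0 (median -0.78) and 0 were called (limma). One of them, Alas2 of haem synthesis, was lower in every LKO library (27.7 ± 15.6 FPKM in WT, 3.69 ± 1.96 in LKO, SD, n = 3 per group; limma adjusted p = 0.183). B and plasma cell markers summed to 22.8 to 70.2 FPKM in WT and 8.94 to 16.9 in LKO, and T and NK cell markers to 2.49 to 3.41 and 1.58 to 2.20. Both sums were lower in every LKO library, as were Alas2, Gstp1, Gstt2 and 7.42% of all genes. Of the 8 T and NK cell markers, 2 were high enough to be tested. The part of these cell types in the transferase values was not tested.

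Profiles most like those of the leading member of each class were sought among the 9751 genes averaging 1 FPKM or more, by the root mean square difference of log2(FPKM + 1) values, each set relative to the gene's own mean, over the 6 libraries. For Gstp1, whose own values varied by 0.69 around their mean on that measure, the nearest were Gm28513 (0.098), Gm44623 (0.13) and the P450 pseudogene Cyp2d38-ps (0.17). For Gstt1 (0.56) they were Slc35b1 (0.070), Gm9843 (0.12) and Mrto4 (0.12). For Gsta3 (0.82) they were the dehydrogenase family gene Dhrs7 (0.11), the monoamine oxidase gene Maob (0.13) and Gm6652 (0.14), and for Gstk1 (0.42) the thiosulfate sulfurtransferase gene Tst (0.048), the esterase gene Esd (0.067) and Gatb (0.072).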

How the data were processed

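Per the labels' protocols, liver RNA was extracted with TRIzol, cleaned on a column, and 1 μg of it entered NEBNext Ultra library preparation. Tools named without roles in the submitters' processing notes are HISAT2 2.0.5 and DESeq2 1.20.0, besides CASAVA and featureCounts 1.5.0-p3; the build is mm10. The authors deposited 1 table of FPKM values per library. Each FPKM times the merged exon length in GENCODE vM21, which held 54495 of 54532 identifiers, was close to a multiple of a library's own step: 96.1% to 96.4% of values above 0 were whole within 0.05 read, which gave the reads used here. No 2 libraries held an identical FPKM above 0.

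Members and gene lists were chosen with earlier results of these data known. Their counts stand beside the shares over all genes for scale only. Groups and replicate numbers came from the sample titles. The test was limma-trend (limma 3.58.1, R 4.3.3) with robust empirical Bayes on log2(FPKM + 1) over the 11672 genes averaging 0.5 FPKM or more. Genotype was the single term, p-values were adjusted by Benjamini-Hochberg, and 0.05 was the threshold. On this scale the changes of low genes come out too small. The fit was tested on simulated data. There it called 3.7% of genes changed 2-fold, 43.4% of those changed 4-fold and 79.7% of those changed 16-fold. A gene that was not called may therefore still differ by such amounts. Named besides the members, their copies and Arid2 were up to 4 genes of each list by smallest p and 3 genes most like a leading member; Mif, Ddt, Gm28836 and Gm4956 were chosen for position, after their values were seen. Alternatives were another pseudocount, other filters, a replicate block, libraries left out, voom, other scalings, array quality weights and summed copies. The level of 1 marker gene is not reported here. Figures used Python 3.11.15 and matplotlib 3.10.9.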

Additional observations from a re-analysis of the deposited data

How the results depend on the processing

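Between LKO and WT, Gstp1, Gstt1, Gstt2, Gstt3, Gsta1 and Gsta2 kept their direction in all alternatives run. The 154 values for members include the summed copies, entered for each of Gsta1, Gsta2, Gstp1 and Gstp2, although the pi sum is mostly Gstp1 reads. Of these values 142 kept their direction. The exceptions were Gsta3 (-0.25 without WT replicate 1, -0.07 without LKO replicate 2, -0.38 without LKO replicate 3, -0.017 with quantile normalization), Gsta4 (-0.49 without WT replicate 1, -0.13 without LKO replicate 2, -0.47 without both replicate 1 libraries, -0.070 scaled to total reads, -0.064 with quantile normalization, -0.23 with array quality weights), Gstk1 (-0.15 without WT replicate 1) and Gstp2 (0.17 without LKO replicate 3); the cause was not tested. With 1 library left out, the values ran from -0.38 to 0.83 for Gsta3, from -0.49 to 0.37 for Gsta4, from -0.83 to 0.17 for Gstp2 and from -0.15 to 0.42 for Gstk1. No member was called except with array quality weights, whose estimation stopped before it converged: there 621 genes were called higher and 574 lower (4.92%), among them 3 members, Gstt2 (-2.04, limma adjusted p = 0.00501), Gstp1 (-1.05, 0.0427) and Gsta2 (-1.53, 0.0434). The adjusted p of Gstt2 ranged from 0.00501 to 0.600 over its alternatives and that of Gstp1 from 0.0427 to 0.800.

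Over all genes, 1 was called higher and 4 lower, against 0 and 1 with no filter on low values, 0 and 0 with the replicate block, 1 and 1 without both replicate 1 libraries, and 0 and 3 with quantile normalization. With 1 library left out, between 0 and 17 were higher and between 0 and 4 lower (17 higher without LKO replicate 3, and 0 in both directions without WT replicate 3). Same-numbered libraries deviated from their group means with correlations of 0.49, 0.30 and -0.02, so the numbers were not taken as pairs; the replicate block called no member, and WT replicate 2 correlated best with LKO replicate 3 (0.45). The median difference of the members was -0.10, between -0.38 and 0.0071 with 1 library left out, and -0.63 without both replicate 1 libraries. At this depth a gene at a few reads, such as Gsta1 in LKO replicate 3, has no stable value.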
